A study of Drosophila melanogaster with 6 samples.

Results

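The mRNAs described here are those of 7 genes for the Lsd1 demethylase, its cofactor CoRest and a set of heterochromatin and repressor proteins: Su(var)3-3, CoRest, Su(var)205, Su(var)3-9, egg, Hmt4-20 and ttk. They were chosen by gene name, not by any measured value. They are 7 of the 17070 genes with a value in both experiments, and all 7 were among the 6687 genes tested. Lsd1, the product of Su(var)3-3, removes methyl groups from histone H3. CoRest is the scaffold that holds Lsd1 on nucleosomes. In heterochromatin, Su(var)3-9 and Eggless, the product of egg, methylate histone H3, HP1a, the product of Su(var)205, binds the methylated tail, and Hmt4-20 methylates histone H4. Loss of Lsd1 or of Eggless in flies disturbs oogenesis. The question addressed for these genes is whether an antibody against Lsd1, or against a second chromatin enzyme, recovered their mRNAs beyond IgG.

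RNA immunoprecipitation and sequencing was done on ovaries of wild type Oregon-R Drosophila melanogaster. About 200 females, 12 hours after eclosion, were dissected for each of 2 experiments. Each lysate was divided among 3 antibodies: anti-IgG as the background control, anti-Lsd1 and anti-Bre1. Bre1 is the ubiquitin ligase for histone H2B. Each antibody thus had 2 libraries, 1 per experiment, and no library carries a mutation or a treatment. Ovaries of many females were pooled in each lysate, so the libraries average over cells and animals, and fewer cells of a type and less RNA per cell cannot be told apart. No input RNA was analysed here. Libraries were made without selection for polyadenylated RNA and the kit does not mark strand.

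The depth differed strongly between libraries. Outside ribosomal RNA, the genes used held 206248 (Bre1) to 1575003 (Lsd1) estimated fragments in experiment 1, and 1565940 (Lsd1) to 8540255 (IgG) exon reads in experiment 2. The Bre1 library of experiment 1 and the Lsd1 library of experiment 2 stood apart: 2036 and 1416 genes reached a value of 1 there, against 5485 to 6695 genes in the other 4 libraries. Experiment 1 was deposited as FPKM and experiment 2 as RPKM, both per length and depth, so experiment and quantification cannot be told apart. Germline markers were at 1 or more for 6 of 6 genes in 4 libraries, for 4 in the Bre1 library of experiment 1 and for 3 in the Lsd1 library of experiment 2, and their summed value ran from 18.5 to 553 before scaling. Follicle and other somatic ovary markers reached 1 for 2 to 5 of 6 genes (summed value 6.15 to 34.6), and muscle sheath markers for 3 to 5 of 5 genes (32.2 to 116). Fat body markers stayed under 1 in all 6 libraries (0 of 4 genes, summed value at most 0.348). Hemocyte markers reached 1 for 1 of 4 genes in the Lsd1 library of experiment 2 and for none elsewhere (summed value at most 1.94). After the scaling described next, the summed muscle sheath markers in experiment 2 were at 197 with anti-Lsd1 and 27.9 with IgG, and the summed germline markers at 59.95 and 280. In experiment 1 the scaled sums with anti-Lsd1 and IgG were 43.1 and 78.6 for muscle sheath, and 169 and 124 for germline. The part of these markers in the results below was not tested.

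Values were scaled between libraries by the median ratio over 1028 genes, chosen because each reached 1 before scaling in every one of the 6 libraries. Only 1416 genes reached 1 in the Lsd1 library of experiment 2, and 2036 in the Bre1 library of experiment 1. Su(var)3-3, egg and Su(var)3-9 were below 1 in both and so did not enter the scaling. The scaling therefore need not bring the median ratio of all tested genes to 0. Levels below are scaled FPKM (experiment 1) or scaled RPKM (experiment 2). A log2 ratio is the difference of log2(scaled value + 1) between 2 antibodies in the same experiment, which understates the fold of low genes. Scaling moved the median Lsd1 over IgG ratio of all tested genes from 0.28 to 0.03 in experiment 1 and from -2.02 to -0.84 in experiment 2, and the Bre1 over IgG median from -1.34 to -0.40 and from -0.74 to -0.22. Across the 6 libraries the mean log2 level was 3.98 ± 0.58 for Su(var)205, 3.08 ± 0.50 for Hmt4-20, 2.82 ± 0.60 for ttk, 2.61 ± 0.50 for CoRest, 1.36 ± 0.45 for egg, 1.36 ± 0.66 for Su(var)3-9 and 1.13 ± 0.47 for Su(var)3-3 (SD, n = 6). The mRNA for HP1a was thus the most abundant and that for Lsd1 the least. Of the 6 steps in that order, the gap exceeded the SD of both neighbours at the first (0.90, between Su(var)205 and Hmt4-20) and between CoRest and egg (1.25). The other neighbours lay 0.01 to 0.27 apart, within their spread. Su(var)205 came first in 5 of the 6 libraries, and Hmt4-20 came first in the Bre1 library of experiment 1. Su(var)3-3 came last in all 3 libraries of experiment 1 but in none of experiment 2.

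**Figure D1:**
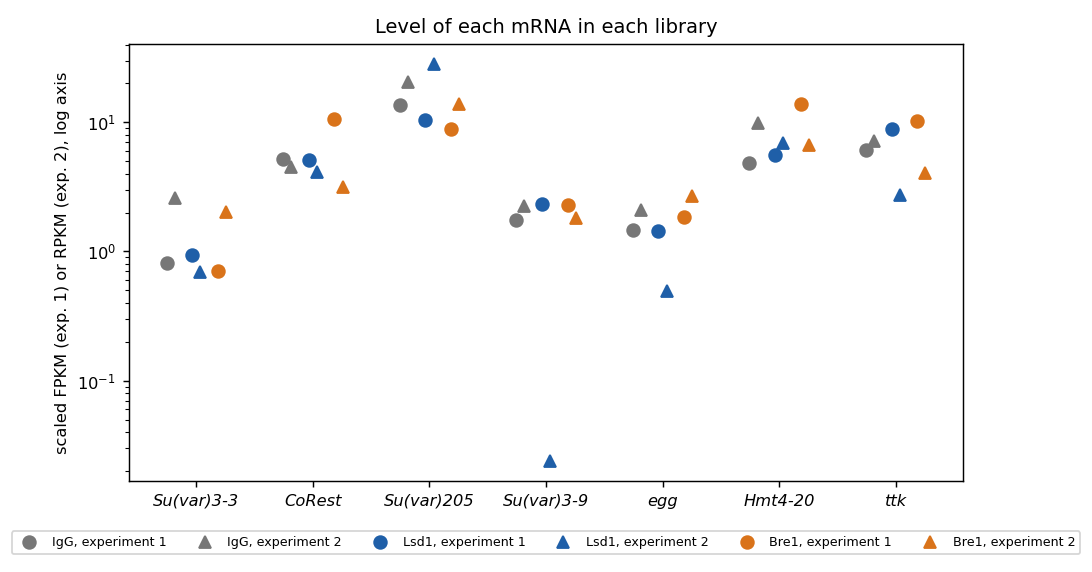
Level of each of the 7 mRNAs (horizontal axis) in each of the 6 libraries, as scaled FPKM in experiment 1 (circles) or scaled RPKM in experiment 2 (triangles) on a log axis; colours mark the antibody and each point is 1 library. Su(var)205 lies between 8.91 and 28.3, and the lowest point is Su(var)3-9 with anti-Lsd1 in experiment 2, at 0.0238, which rests on 1 read.

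Su(var)3-3 lies on chromosome 3L at 20226381 to 20230250, plus strand (dm6), with 7 exons and an exon length of 3681 bases, and overlaps no other annotated gene. Its scaled level in experiment 1 was 0.814 with IgG, 0.933 with anti-Lsd1 and 0.708 with anti-Bre1, from 58, 77 and 8 estimated fragments. In experiment 2 the level was 2.61 with IgG, 0.695 with anti-Lsd1 and 2.01 with anti-Bre1, from 920, 45 and 694 exon reads. The anti-Lsd1 level was therefore close to IgG in experiment 1 and below it in experiment 2, and the antibodies' values overlapped. The log2 ratio of Lsd1 over IgG was 0.09 and -1.09 in experiments 1 and 2. The scaled fold in experiment 2 was 0.266 (95% interval 0.193 to 0.359, which covers counting error only). That library was low for most genes: the median ratio over the 6687 tested genes was -0.84 with an SD over genes of 1.06, and 38.5% of them lay at or below Su(var)3-3. In limma, the mRNA of the immunoprecipitated protein had a fitted log2 ratio of -0.50 ± 0.64 (SE; 95% interval -1.76 to 0.76; adjusted p = 0.962).

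With anti-Bre1 over IgG the Su(var)3-3 ratios were -0.09 and -0.26, both between -1 SD and +1 SD of the median of the tested genes. The fitted ratio was -0.17 ± 0.64 (SE; 95% interval -1.43 to 1.09) in limma, with adjusted p = 1.00. Lsd1 over Bre1, which shares the Lsd1 and Bre1 libraries with the other comparisons, gave 0.18 and -0.83 and a fitted ratio of -0.33 ± 0.64 (SE).

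CoRest lies on chromosome X at 19521929 to 19530896, plus strand, with 22 exons, 10 listed transcripts and an exon length of 5742 bases, and overlaps no other gene. In experiment 1 its scaled level was 5.18 with IgG, 5.12 with anti-Lsd1 and 10.5 with anti-Bre1, from 277, 318 and 96 fragments. In experiment 2 it was 4.52 with IgG, 4.16 with anti-Lsd1 and 3.15 with anti-Bre1, from 2483, 420 and 1693 reads. IgG and anti-Lsd1 were nearly level in both experiments, while anti-Bre1 was the highest library in one experiment and the lowest in the other. The Lsd1 over IgG ratios of CoRest, -0.01 and -0.10, were the closest pair among the 7 mRNAs. Because most genes were low in the Lsd1 library of experiment 2, 80.4% of the tested genes lay at or below that ratio of -0.10. The fitted ratio was -0.06 ± 0.75 (SE; 95% interval -1.55 to 1.44; adjusted p = 0.996 in limma), and it turned to 0.77 in edgeR and 0.81 in DESeq2. The Bre1 over IgG ratios were 0.90 and -0.41, with scaled folds of 2.03 (95% counting interval 1.59 to 2.57) and 0.697 (0.655 to 0.742). The fitted Bre1 over IgG ratio of CoRest was 0.24 ± 0.75 (SE) with adjusted p = 1.00 in limma.

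Su(var)205, the HP1a gene, lies on chromosome 2L at 8209626 to 8211122, minus strand, with an exon length of 1109 bases. It overlaps CG8419 on the opposite strand by 12 bases. Its scaled level was 13.7, 10.4 and 8.91 with IgG, anti-Lsd1 and anti-Bre1 in experiment 1 (224, 195 and 23 fragments). In experiment 2 it was 20.6, 28.3 and 13.9 (2184, 553 and 1445 reads). Anti-Lsd1 was below IgG in the first experiment and above it in the other, so the values overlapped. The Lsd1 over IgG ratios were -0.36 and 0.44, the reverse of the other 4 members whose signs differed. In experiment 1 only 9.84% of tested genes lay at or below Su(var)205, and in experiment 2 91.4% did. The scaled folds were 0.763 (95% counting interval 0.627 to 0.929) and 1.38 (1.25 to 1.51). The fitted ratio was 0.04 ± 0.86 (SE; 95% interval -1.65 to 1.74; adjusted p = 0.998 in limma). Bre1 over IgG gave -0.56 and -0.53, below 0 in both experiments. Its fitted ratio was -0.55 ± 0.86 (SE; adjusted p = 1.00 in limma), against a median of -0.33 over all tested genes.

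Su(var)3-9, a histone H3 methyltransferase, lies on chromosome 3R at 15259864 to 15263458, minus strand, with 1 listed transcript and an exon length of 2386 bases. All 3595 bases lie within eIF2gamma, a translation initiation factor gene on the same strand (15257844 to 15263458), so reads of their common exons cannot be assigned. In experiment 2, 14 of its 510 exon reads were unique with IgG, 0 of 1 with anti-Lsd1 and 7 of 405 with anti-Bre1, whereas each of the other 6 members had at least 99.9% unique reads. The values of Su(var)3-9 are therefore uncertain throughout. Its scaled level was 1.75, 2.34 and 2.28 with IgG, anti-Lsd1 and anti-Bre1 in experiment 1 (74, 111 and 16 estimated fragments). In experiment 2 it was 2.23, 0.0238 and 1.81 (510, 1 and 405 reads). The library at 0.0238 was far below the other 5, which lay between 1.75 and 2.34. The Lsd1 over IgG ratios were 0.28 and -1.66, and the scaled fold in experiment 2 was 0.0107 (95% counting interval 0.00027 to 0.0597). eIF2gamma, on the same comparison, gave 0.07 and -0.42, from 1753 reads with IgG and 231 with anti-Lsd1 in experiment 2. The fitted ratio of Su(var)3-9 was -0.69 ± 0.68 (SE; 95% interval -2.04 to 0.66; adjusted p = 0.962 in limma). Without the Lsd1 library of experiment 1 the fitted ratio was -1.43 ± 0.48 (SE; adjusted p = 0.0383 in limma), but 24.6% of all tested genes were then called lower. Bre1 over IgG gave 0.26 and -0.20. In experiment 2 the unscaled Bre1 over IgG fold of Su(var)3-9 was 0.515 from all reads and 0.324 from unique reads.

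egg, the gene of the other H3 methyltransferase, lies on chromosome 2R at 24775534 to 24779901, minus strand, with 1 listed transcript of 3937 bases. It overlaps the noncoding gene CR44067 on the opposite strand by 4191 bases, and that gene had 0 to 4 counts per library. The scaled level of egg was 1.46, 1.43 and 1.84 with IgG, anti-Lsd1 and anti-Bre1 in experiment 1 (115, 123 and 22 fragments). In experiment 2 it was 2.10, 0.491 and 2.69 (791, 34 and 992 reads). Both anti-Lsd1 values lay below both IgG values and below both anti-Bre1 values, although the margin over IgG was small in experiment 1. Among the 7 members, egg was the 1 whose Lsd1 and IgG values did not overlap in the lower direction, and 16.1% of all tested genes showed the same. For Lsd1 below Bre1 it was again the 1 of 7, and the share of all tested genes was 10.4%. In the higher direction 0 of 7 members had values that did not overlap, against 2.15% of tested genes for Lsd1 over IgG, 4.74% for Bre1 over IgG and 5.83% for Lsd1 over Bre1. For Bre1 below IgG it was 0 of 7 against 30.8%. The Lsd1 over IgG ratios were -0.01 and -1.06, with a fitted ratio of -0.53 ± 0.68 (SE; 95% interval -1.88 to 0.81; adjusted p = 0.962 in limma). The Bre1 over IgG ratios of 0.21 and 0.25 made egg the 1 member above 0 in both experiments, although the unscaled ratios were -0.89 and -0.23. In experiment 2, 91.7% of tested genes lay at or below it, and its fitted ratio was 0.23 ± 0.68 (SE; 95% interval -1.11 to 1.57; adjusted p = 1.00 in limma).

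Hmt4-20, the histone H4 methyltransferase gene, lies on chromosome X at 648483 to 656033, minus strand, with an exon length of 6211 bases, and overlaps Roc1a on the opposite strand by 115 bases. Its scaled level was 4.81, 5.55 and 13.9 with IgG, anti-Lsd1 and anti-Bre1 in experiment 1 (591, 729 and 248 fragments). In experiment 2 it was 9.83, 6.90 and 6.66 (5844, 754 and 3872 reads). The anti-Bre1 library of experiment 1 was the highest of the 6, and that of experiment 2 lay below IgG, so the values overlapped. The Bre1 over IgG ratio of 1.35 in experiment 1 was the largest among the members, with a scaled fold of 2.88 (95% counting interval 2.47 to 3.35), and 97.7% of tested genes lay at or below it. The ratio in experiment 2 was -0.50, with a scaled fold of 0.677 (0.650 to 0.706). The fitted ratio was 0.43 ± 0.79 (SE; 95% interval -1.13 to 1.99; adjusted p = 1.00 in limma). Lsd1 over IgG gave 0.17 and -0.46 and a fitted ratio of -0.14 ± 0.79 (SE; adjusted p = 0.985 in limma).

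ttk encodes Tramtrack, a BTB and zinc finger repressor that acts with CoRest in flies. It lies on chromosome 3R at 31713867 to 31735392, plus strand, with an exon length of 7557 bases, and overlaps no other gene. Its scaled level was 6.15, 8.83 and 10.3 with IgG, anti-Lsd1 and anti-Bre1 in experiment 1 (518, 832 and 133 fragments). In experiment 2 it was 7.17, 2.75 and 4.07 (5185, 366 and 2880 reads). Both antibodies were thus above IgG in experiment 1 and below it in experiment 2. The Lsd1 over IgG ratio of 0.46 in experiment 1 was the highest of the 7, with 94.4% of tested genes at or below it, while in experiment 2 it was -1.12. The scaled folds were 1.44 (95% counting interval 1.28 to 1.61) and 0.384 (0.344 to 0.427). The fitted ratio was -0.33 ± 0.77 (SE; 95% interval -1.85 to 1.19; adjusted p = 0.964 in limma). Bre1 over IgG gave 0.65 and -0.69, and 12.9% of tested genes lay at or below ttk in experiment 2.

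**Figure D2:**
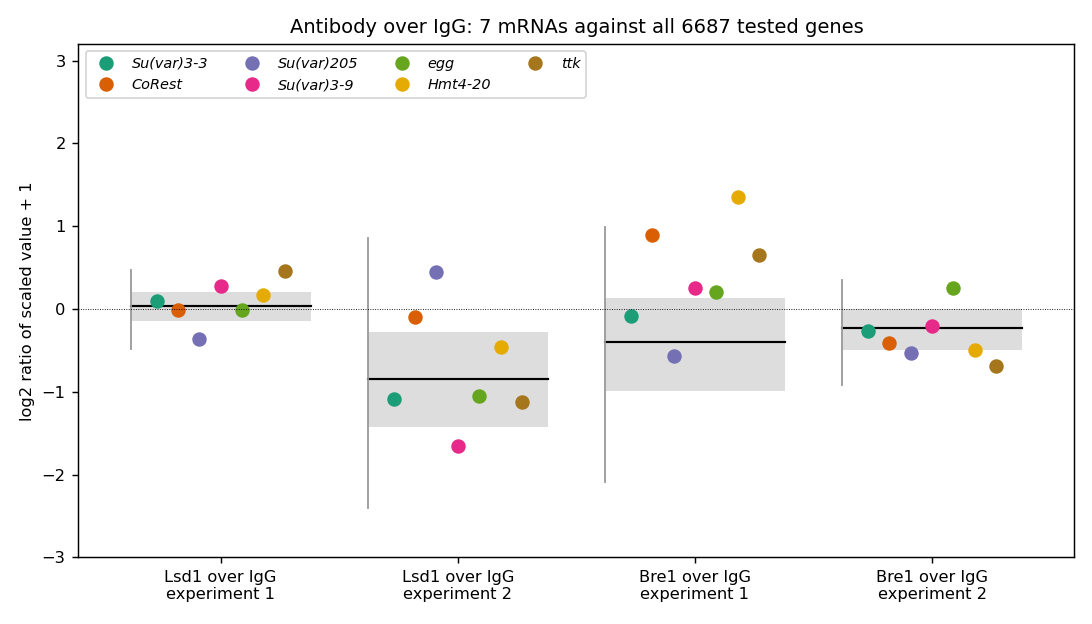
Log2 ratio of scaled value + 1 (vertical axis) for anti-Lsd1 and anti-Bre1 over IgG in each experiment (horizontal axis). Coloured points are the 7 mRNAs, the black line is the median of the 6687 tested genes, the grey box their interquartile range and the thin line their 5th to 95th percentile. The members lie from -1.66 to 0.44 for Lsd1 over IgG in experiment 2, where the median of tested genes is -0.84, and Hmt4-20 is the highest member at 1.35 for Bre1 over IgG in experiment 1.

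None of the 7 mRNAs passed the test in any comparison. For Lsd1 over IgG, 0 of 7 were called in limma at an adjusted p under 0.05, where 0.0299% of the 6687 tested genes were called (1 higher and 1 lower). For Bre1 over IgG, 0 of 7 were called against 0.0299% of tested genes, and for Lsd1 over Bre1 0 of 7 against 0.0748%. None had an unadjusted p under 0.05 in limma, edgeR or DESeq2 in any of the 3 comparisons, where limma gave 157, 260 and 81 such genes among all tested. The lowest unadjusted p among the members in limma was 0.314 for Lsd1 over IgG (Su(var)3-9), 0.523 for Bre1 over IgG (Su(var)205) and 0.260 for Lsd1 over Bre1 (egg). With SEs of 0.64 to 0.86, differences of the size seen here were not detectable, and a missing call does not show that an mRNA was recovered equally by both antibodies. The limma p-values rest on how far the antibody ratios differed between the 2 lysates, with the spread largely borrowed from all tested genes. That spread may be technical.

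The direction often changed with the experiment, among the members as among all tested genes. For Lsd1 over IgG, CoRest and egg were below 0 in both experiments, none was above 0 in both, and the other 5 had opposite signs. Of the 6687 tested genes, 430 were above 0 in both, 2322 below in both and 3781 opposite. For Bre1 over IgG, egg was above 0 in both, Su(var)3-3 and Su(var)205 were below 0 in both, and 4 had opposite signs, beside 669, 3503 and 2358 of the tested genes. For Lsd1 over Bre1, Su(var)205 was above 0 in both (0.20 and 0.98), egg (-0.22 and -1.31) and ttk (-0.19 and -0.43) were below 0 in both, and 4 had opposite signs, beside 661, 1335 and 4514. Without scaling, every member lay below IgG for Bre1 in both experiments and for Lsd1 in experiment 2, and in experiment 1 only Su(var)205 lay below IgG for Lsd1 (-0.06). For Lsd1 over Bre1 without scaling, all 7 lay above 0 in experiment 1 (0.86 to 2.22) and below 0 in experiment 2 (-1.89 to -0.68), so no member had the same sign in both. These comparisons share libraries, so their values are not independent. The median ratio of the members for Lsd1 over IgG was 0.09 and -1.06 in experiments 1 and 2, beside 0.03 and -0.84 over all tested genes. The Bre1 over IgG median was 0.26 and -0.41, beside -0.40 and -0.22. For Lsd1 over Bre1 it was -0.19 and -0.43, beside 0.44 and -0.61.

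The members with the longest exon sequence had the highest Bre1 over IgG ratios in experiment 1: Hmt4-20 (1.35), CoRest (0.90) and ttk (0.65), whereas Su(var)205, the shortest, had the lowest (-0.56). Over all tested protein-coding genes the median of this ratio ran with exon length, from -0.96 for the 1996 genes below 1500 bases to 0.09 for the 510 genes from 4500 to 6000 bases and 0.49 for the 625 genes of 6000 bases or more. In experiment 2 the medians of the same length classes lay between -0.33 and -0.16. For Lsd1 over IgG the medians ran from -0.11 below 1500 bases to 0.27 at 6000 bases or more in experiment 1. In experiment 2 they lay between -0.94 and -0.76. The longest member, ttk, had the highest Lsd1 over IgG ratio in experiment 1 (0.46), and Su(var)205 the lowest (-0.36). The part of exon length in the members' ratios was not tested.

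Transcripts could be compared in experiment 1, where the deposited tables give FPKM with confidence limits for 27 transcripts of the 7 genes; with 1 library per antibody there was no test. All transcript levels given here are unscaled FPKM, so that between libraries the share of a gene's FPKM is compared rather than the level. The longer Hmt4-20 transcript FBtr0070151 (6137 bases) was at 6.13 FPKM with IgG, 6.33 with anti-Lsd1 and 1.81 with anti-Bre1. The shorter FBtr0308652 (5149 bases) was at 0.978 (limits 0.657 to 1.30) with IgG, 3.94 (3.27 to 4.62) with anti-Lsd1 and 3.42 (2.74 to 4.11) with anti-Bre1. The shorter form thus made up 13.8% of the Hmt4-20 FPKM with IgG, 38.4% with anti-Lsd1 and 65.5% with anti-Bre1. Its 3′ end lies at 648891 on the minus strand, upstream of the end of the longer form at 648483. The forms also differ at the 5′ end, at 654938 for the shorter and 656033 for the longer. Only the longer form reaches the overlap with Roc1a on the opposite strand, and the kit does not mark strand. Roc1a was at 28.8 unscaled FPKM with IgG, 40.5 with anti-Lsd1 and 0.464 with anti-Bre1. The part of the start, the end or Roc1a reads in these shares was not tested.

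CoRest transcripts end at 4 positions, and their shares differed most for anti-Bre1. The end at 19529973 held 7.73% of the gene's FPKM with IgG, 16.2% with anti-Lsd1 and 59.4% with anti-Bre1. The end at 19530896, the most distal, held 45.9%, 41.7% and 20.7%. For anti-Bre1 the share at 19529973 came from FBtr0307901, at 2.36 unscaled FPKM (limits 1.69 to 3.03), which was listed at 0 in the other libraries (upper limits 0.0474 with IgG and 0.0530 with anti-Lsd1). The anti-Bre1 library held 96 fragments of the gene. For ttk, transcripts ending at 31732768 made up 76.1%, 74.3% and 65.5% of the gene's FPKM with IgG, anti-Lsd1 and anti-Bre1, so the use of its 2 ends varied less. Within that end, however, FBtr0085830 led with IgG (3.41 unscaled FPKM) and anti-Lsd1 (7.33), while FBtr0303228 led with anti-Bre1 (2.27, limits 0.331 to 4.20).

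The low mRNA of Su(var)3-3 was assigned to a different transcript in each library. FBtr0074826 led with IgG (0.889 unscaled FPKM, limits 0.585 to 1.19), FBtr0074825 held nearly all with anti-Lsd1 (1.73, limits 1.33 to 2.12) and FBtr0332693 nearly all with anti-Bre1 (0.267, limits 0.0781 to 0.455). Each was listed at 0 in at least 1 other library. These 3 transcripts share their 3′ end and are 3615, 3681 and 3555 bases long in that order. The HP1a gene had a main transcript, FBtr0079635, which made up 88.1% of the gene's FPKM with IgG, 76.8% with anti-Lsd1 and 100% with anti-Bre1. Its longer form FBtr0079636 was at 2.41 unscaled FPKM with IgG, 4.49 with anti-Lsd1 and 0 with anti-Bre1 (upper limit 0.253).

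**Figure D3:**
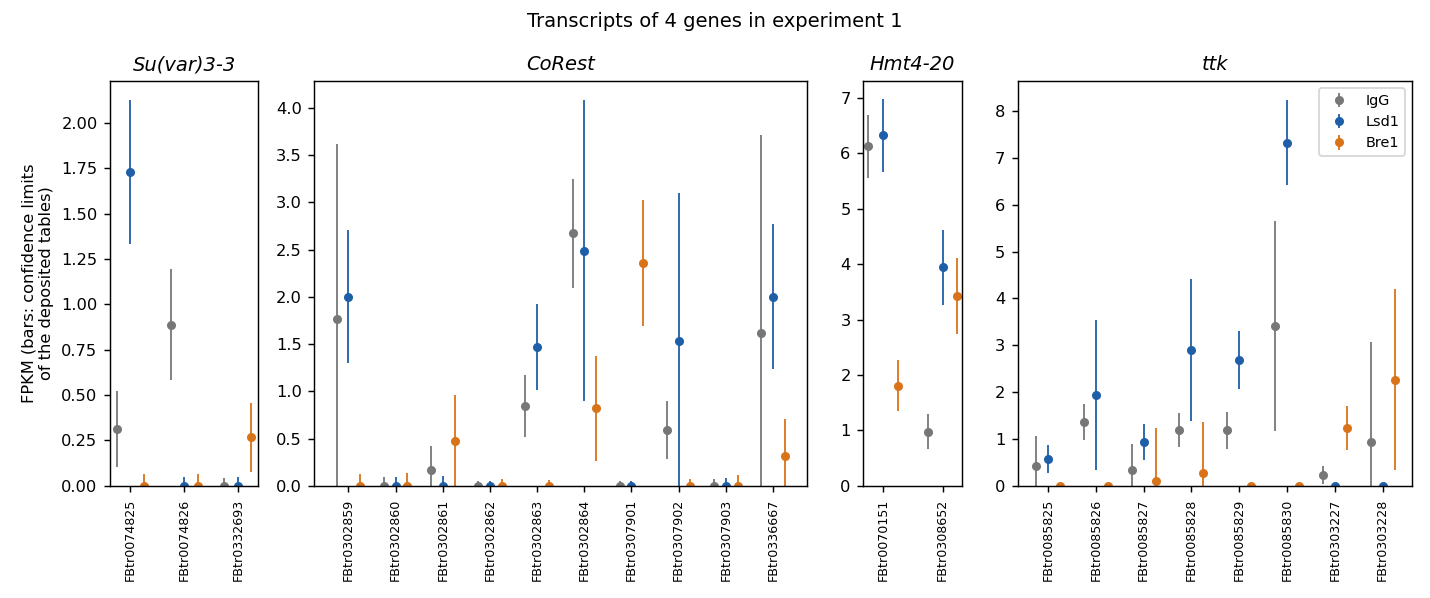
Unscaled FPKM (vertical axes, each panel with its own range from 0) of each listed transcript of Su(var)3-3, CoRest, Hmt4-20 and ttk (horizontal axis) in the 3 libraries of experiment 1. Points are single libraries and bars are the confidence limits of the deposited tables. The shorter Hmt4-20 transcript is at 0.978 with IgG, 3.94 with anti-Lsd1 and 3.42 with anti-Bre1, and each library assigns Su(var)3-3 mainly to another transcript.

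Read classes, such as reads across exon junctions and reads in introns, were listed for experiment 2. The share of junction reads also depends on the number and length of exons and on where reads fall. It does not by itself show whether the recovered RNA was spliced. Su(var)205 has 6 exons over 1109 bases, and Hmt4-20 has 5 over 6211 bases. Again there was 1 library per antibody and no test, and the intervals are 95% Clopper-Pearson intervals that cover counting error only. Reads across exon junctions made up 50.4% of the Su(var)205 exon reads with IgG (48.2 to 52.5), 67.8% with anti-Lsd1 (63.7 to 71.7) and 49.4% with anti-Bre1 (46.8 to 52.0). CoRest gave 24.0% (22.3 to 25.7), 33.3% (28.8 to 38.1) and 28.3% (26.2 to 30.5). For these mRNAs the anti-Lsd1 interval lay above that of IgG. The reverse held for ttk, with 10.9% (10.1 to 11.8) for IgG and 4.92% (2.94 to 7.66) for anti-Lsd1, and for Hmt4-20, with 2.70% (2.30 to 3.15) and 0.133% (0.00336 to 0.737; 1 of 754 reads). For Su(var)3-3 and egg the intervals of IgG and anti-Lsd1 overlapped, at 7.72% and 2.22% for Su(var)3-3 and 13.3% and 20.6% for egg. Pooled over all tested protein-coding genes the shares were 14.7% with IgG, 10.2% with anti-Lsd1 and 14.1% with anti-Bre1. The median over single genes with at least 100 exon reads was 14.05% with IgG (5905 genes), 5.37% with anti-Lsd1 (1748 genes) and 13.3% with anti-Bre1 (5488 genes). The lower shares of ttk and Hmt4-20 with anti-Lsd1 thus went the way of the median gene, and those of Su(var)205 and CoRest did not. The members thus differed from one another in the direction of this difference.

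Intron reads were most frequent for ttk. They made up 16.7% of the ttk gene reads with IgG (1040 of 6225; 15.8 to 17.7), 9.52% with anti-Bre1 (303 of 3183; 8.52 to 10.6) and 0.272% with anti-Lsd1 (1 of 367; 0.00690 to 1.51). Without strand, intron reads of ttk could also come from RNA of the other strand. CoRest had 2.59% with IgG, 2.31% with anti-Bre1 and 0 of 420 reads with anti-Lsd1 (Clopper-Pearson upper limit 0.874%; a floor of 3 reads would be 0.714%). For Su(var)3-3, Su(var)205, egg and Hmt4-20 the intron share was at most 0.764% with IgG and anti-Bre1. With anti-Lsd1 the depth set little bound for Su(var)3-3 (0 of 45 reads, upper limit 7.87%) and egg (0 of 34 reads, upper limit 10.3%), whereas Su(var)205 had 0 of 553 reads (upper limit 0.665%) and Hmt4-20 had 1 of 755. Pooled over all tested protein-coding genes the share was 7.30% with IgG, 3.16% with anti-Lsd1 and 1.66% with anti-Bre1. The median over single genes with at least 100 exon reads was 0.590%, 0% and 0.617%, so the shares of ttk and CoRest with IgG lay above that of the median gene. Against IgG, the lower shares of ttk and CoRest with anti-Lsd1 went the way of the pooled share and of the median gene. That median was over fewer genes with anti-Lsd1 (1748) than with IgG (5905). Against anti-Bre1, ttk and CoRest were also lower with anti-Lsd1, whereas the pooled share was higher (3.16% and 1.66%).

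**Figure D4:**
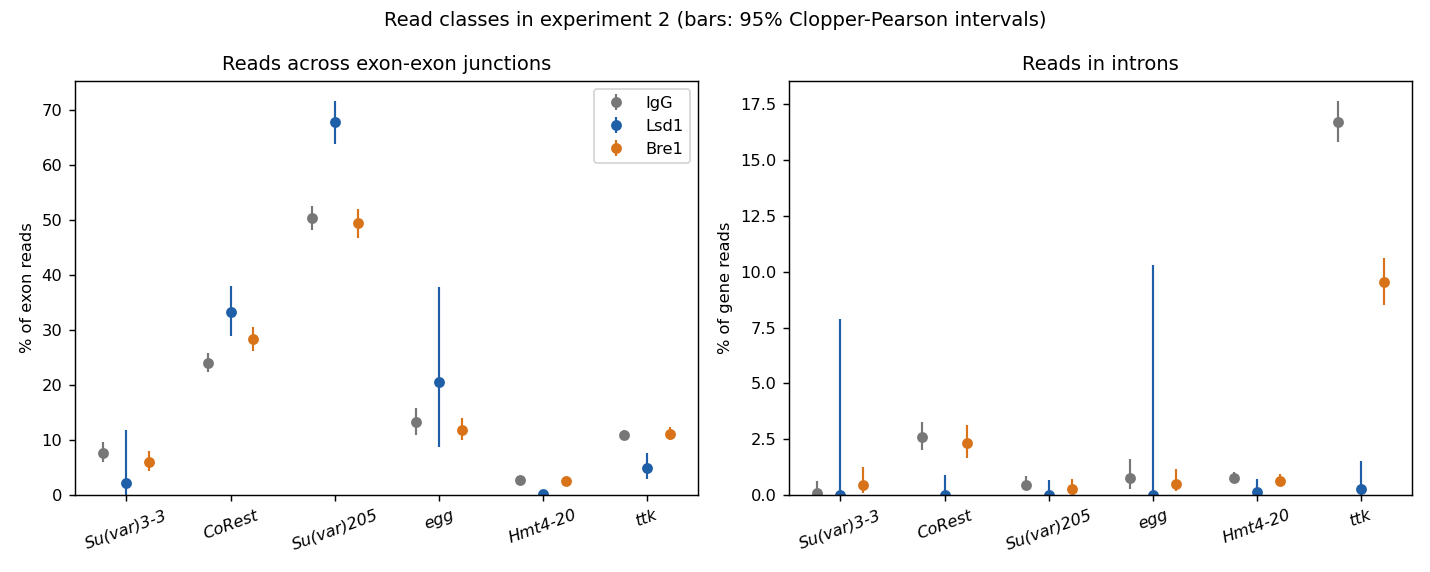
Share of exon reads that cross an exon junction (left, percent) and share of gene reads in introns (right, percent) for 6 mRNAs in the 3 libraries of experiment 2. Su(var)3-9, which lies within eIF2gamma, is left out because few of its exon reads were unique (14 of 510 with IgG). Points are single libraries and bars are 95% Clopper-Pearson intervals. Su(var)205 with anti-Lsd1 stands at 67.8% for junction reads, and ttk at 16.7% for intron reads with IgG and 0.272% with anti-Lsd1.

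The pattern over the 4 ratios to IgG (both antibodies in both experiments) was compared by Euclidean distance with tested genes whose mean log2 level was within 1. The genes nearest to Su(var)3-3 among 5040 candidates were CG5003 (distance 0.029), CalpB (0.107) and m-cup (0.115), where the median distance was 1.02. CalpB encodes a calpain protease. For CoRest, the nearest of 2522 candidates were Br140 (0.235), a bromodomain protein gene, SNF4Agamma (0.309), a subunit of the AMP-activated kinase, and crm (0.325), where the median was 1.90. The distance between Su(var)3-3 and CoRest themselves was 1.41, and 72.7% of the candidates lay nearer to Su(var)3-3 than CoRest did. CoRest, at a mean log2 level of 2.61 against 1.13 for Su(var)3-3, lay outside the level range of these candidates. That share therefore does not compare genes of like level. The member nearest to CoRest was Hmt4-20 at 0.615, with 3.13% of candidates nearer, and the member nearest to Su(var)3-3 was egg at 0.603, with 18.1% nearer. The ratios share the IgG libraries, and the distances are a description of 6 libraries.

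A list of 39 other genes for heterochromatin proteins and histone modifying enzymes was examined beside the members. Of these, 36 were tested, HP6 fell below the filter, and HDAC3 and mod(mdg4) were not joined between the experiments. None of the 36 was called in any comparison by limma, edgeR or DESeq2, and none had an unadjusted p under 0.05 in any of the 3 tools. Their median ratio for Lsd1 over IgG was 0.20 and -1.39 in experiments 1 and 2. The Bre1 over IgG median was 0.01 and -0.32. The medians of the fitted ratios were -0.56 (Lsd1 over IgG), -0.19 (Bre1 over IgG) and -0.32 (Lsd1 over Bre1), beside -0.41, -0.33 and -0.10 over all tested genes. For the members they were -0.33, 0.03 and -0.33.

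For Lsd1 over IgG, 3 of these 36 genes lay above 0 in both experiments and 6 below, beside 430 and 2322 of the 6687 tested genes. For Bre1 over IgG it was 3 and 13, beside 669 and 3503, and for Lsd1 over Bre1 1 and 9, beside 661 and 1335. Nothing particular to the list is read from these counts. Those with the largest fitted ratios in each direction, among genes with 1 sign in both experiments, are given as scaled values. Set2, a histone H3 methyltransferase gene of transcribed chromatin, had 0.37 and 0.70 for Lsd1 over IgG and 0.96 and 0.36 for Bre1 over IgG. Mi-2, a nucleosome remodeller gene, had 0.02 and 1.05, and 0.90 and 0.42. The gene l(3)mbt, which encodes a repressor with MBT domains, had 0.42 and 0.15 for Lsd1 over IgG. Its sign in experiment 2 rests on the scaling, as its unscaled level there was 5.30 with IgG and 1.14 with anti-Lsd1. Set2 and Mi-2 were thus above IgG with both antibodies on the scaled values, without passing the test (adjusted p = 0.962 and 0.963 for Lsd1, and 1.00 for Bre1, in limma). Unscaled, both were above IgG only with anti-Lsd1 in experiment 1: Mi-2 was at 7.45 with IgG, 9.52 with anti-Lsd1 and 3.87 with anti-Bre1 there, and at 29.5, 11.9 and 25.5 in experiment 2.

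Among genes below 0 in both experiments, the lowest for Lsd1 over IgG were Panx, for silencing guided by Piwi (-0.37 and -1.61), E(z), for a Polycomb methyltransferase (-0.25 and -1.46), and rhi, for an HP1 relative at piRNA clusters (-0.14 and -1.44). The sign of rhi in experiment 1 rests on the scaling, as its unscaled level there was 3.00 with IgG and 3.24 with anti-Lsd1. Other genes of the list had lower fitted ratios but opposite signs. The lowest of the 36 was G9a, with a fitted ratio of -1.44 (0.35 and -3.22). In experiment 2, Panx had 391 exon reads with IgG and rhi 257, and neither had a read with anti-Lsd1. For Bre1 over IgG the highest besides Set2 and Mi-2 was HDAC6, a deacetylase gene (0.99 and 0.14). Both signs of HDAC6 rest on the scaling. Its unscaled level was 3.73 with IgG and 2.27 with anti-Bre1 in experiment 1, and 4.32 and 3.16 in experiment 2. The lowest for Bre1 over IgG were HP4, for a heterochromatin protein (-2.25 and -0.37, from 33 fragments with IgG and 0 with anti-Bre1 in experiment 1), CG5694, which is ova (-1.45 and -1.09), and Su(var)2-10, a SUMO ligase gene (-0.99 and -1.04). For Lsd1 over Bre1 only Sirt1, a deacetylase gene, was above 0 in both experiments among the 36 (0.58 and 0.42). Its sign in experiment 2 rests on the scaling, as its unscaled level there was 1.78 with anti-Lsd1 and 4.19 with anti-Bre1. Among genes below 0 in both experiments, the lowest were wde, for a cofactor of Eggless (-0.19 and -1.72), gpp (-0.33 and -0.98) and ash1 (-0.15 and -1.13). Both gpp and ash1 encode histone methyltransferases. The lowest fitted ratio of all 36 was that of G9a (-1.07), whose signs were opposite (0.16 and -2.30). None of the Lsd1 over Bre1 values passed the test (adjusted p = 1.00 in limma). The sign of wde, gpp and ash1 in experiment 1 rests on the scaling: the unscaled level of wde there was 4.404 with anti-Lsd1 and 1.08 with anti-Bre1.

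**Figure D5:**
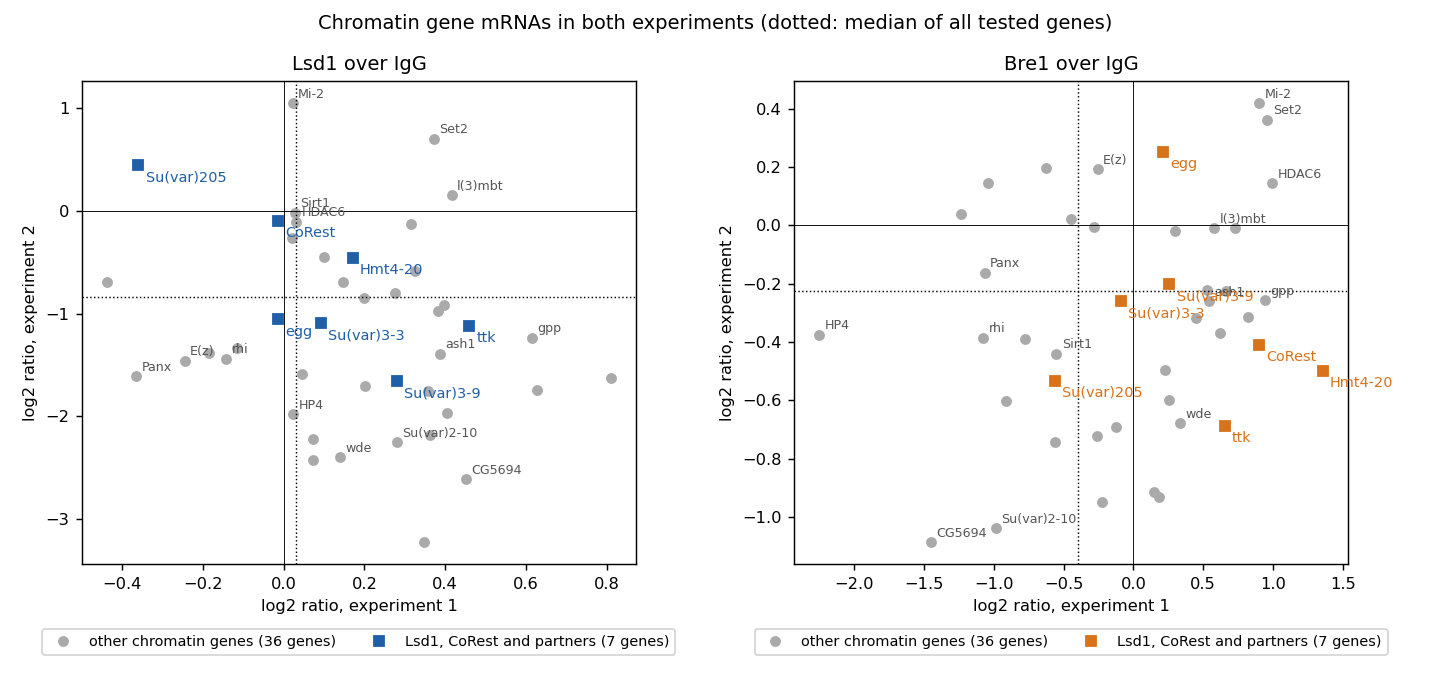
Log2 ratio in experiment 1 (horizontal axis) against experiment 2 (vertical axis) for Lsd1 over IgG (left) and Bre1 over IgG (right). Squares are the 7 mRNAs, grey points the 36 other chromatin genes, solid lines mark 0 and dotted lines the medians of the 6687 tested genes. No member lies above 0 in both experiments for Lsd1 over IgG, and egg (0.21 and 0.25) does for Bre1 over IgG.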

How the data were processed

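The authors deposited FPKM per transcript with confidence limits for experiment 1, per the file headers. A coverage signal was deposited in the same tables by the authors and was not used here. For experiment 2 the authors deposited RPKM, TPM and read counts per gene, by a program not given in the sources used here. TPM was not used. The submitters' processing notes list Cufflinks, TopHat, SAMtools 0.1.18.0 and Bowtie2 2.0.6.0, with dm6 as the build. Transcripts were summed per gene; 17021 genes were joined by identifier and 80 by symbol.

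Testing kept genes that reached 1 in 2 or more libraries and used limma 3.58.1 (R 4.3.3; lmFit, eBayes with trend) on log2(scaled value + 1) of the 6 libraries together, in a model of antibody plus experiment (2 residual and 119 prior degrees of freedom). The call threshold was 0.05 after Benjamini-Hochberg adjustment over all tested genes. Experiment entered as a block because each lysate was divided among the antibodies, per the labels; deviations from antibody means correlated at 0.47, 0.51 and 0.11, which the different quantification can also give. Fragments of experiment 1 were estimated from FPKM and its limits (83.8%, 84.3% and 80.8% of low values whole within 0.05). With the deposited counts of experiment 2 they gave depth and the edgeR 4.0.16 and DESeq2 1.42.0 alternatives. The test was checked on simulated data with a common profile, apart from the genes set to change, and no experiment effect. That check does not cover the spread between the experiments seen here. The members, lists and tests were chosen with earlier results of these data known. All members are named; of the other list, every called gene and the 3 per direction with the largest fitted ratio and 1 sign in both experiments; and the 3 genes nearest in pattern.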

Additional observations from a re-analysis of the deposited data

How the results depend on the processing

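Of 294 values of the 7 mRNAs under alternatives, 1 was called: Su(var)3-9, Lsd1 over IgG, without the Lsd1 library of experiment 1 (-1.43, adjusted p = 0.0383 in limma). Signs changed in 24 values without a left-out library, each of them uncalled, and the cause was not tested. For Lsd1 over IgG, quantile normalization gave Su(var)3-3 0.011, CoRest 0.31, Hmt4-20 0.072 and ttk 0.078. edgeR with the replicate block gave CoRest 0.77, Hmt4-20 0.57 and ttk 0.19. DESeq2 gave 0.81, 0.61 and 0.21, and the values as deposited gave Su(var)205 -0.96. For Bre1 over IgG, quantile normalization gave Su(var)3-3 0.21 and ttk 0.31, edgeR 0.13 and 0.39, DESeq2 0.076 and 0.36, and a pseudocount of 5 gave ttk 0.014. As deposited, CoRest was at -0.90, Su(var)3-9 at -0.83, egg at -0.56 and Hmt4-20 at -0.75. For Lsd1 over Bre1, CoRest was at 0.058 and ttk at 0.12 as deposited. The fit without the replicate block left every member's fitted ratio as it was, called 0 genes and changed no member's call.

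Leaving out each library in turn, Lsd1 over IgG ran from -0.99 to 0.067 (Su(var)3-3), -0.39 to 0.29 (CoRest), -0.35 to 0.45 (Su(var)205), -1.43 to 0.18 (Su(var)3-9), -1.0004 to 0.0053 (egg), -0.75 to 0.48 (Hmt4-20) and -1.04 to 0.40 (ttk). Bre1 over IgG ran from -0.50 to 0.16, -0.36 to 0.90, -0.73 to -0.33, -0.56 to 0.60, -0.030 to 0.57, -0.30 to 1.22 and -0.75 to 0.72 in the same order of genes. Lsd1 over Bre1 ran from -0.82 to 0.22, -0.95 to 0.28, 0.19 to 0.99, -1.46 to 0.14, -1.22 to -0.26, -1.35 to 0.13 and -0.74 to 0.14. A lone library was assumed to vary like the other groups.

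The counts of called genes over all tested genes moved as well, from 2, 2 and 5 for Lsd1 over IgG, Bre1 over IgG and Lsd1 over Bre1. They were 0, 0 and 0 without the replicate block, with a pseudocount of 0.1, with no filter, as deposited, under quantile normalization and in edgeR. A pseudocount of 5 gave 15, 1 and 15, and DESeq2 gave 11, 1 and 8. Leaving out 1 library gave 0 to 1712, 0 to 50 and 0 to 28; 1712 came without the Lsd1 library of experiment 1. DESeq2 gave no adjusted p for 1 member and 9 of the other chromatin genes for Lsd1 over IgG. Further sheets of the transcript tables held the same member values (108 of 108). The Bre1 over IgG fold of Su(var)3-9 in experiment 2 was 0.324 from unique reads. With 1 to 34 reads for Su(var)3-9 and egg in the Lsd1 library of experiment 2, and 8 to 23 fragments for Su(var)3-3, Su(var)3-9, egg and Su(var)205 in the Bre1 library of experiment 1, depth limits those ratios.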
